A study of Caenorhabditis elegans with 2 samples.

Results

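DVE-1 binding sites within introns were defined as the peaks of the reproducible DVE-1 peak list whose summit, the base of highest signal, lay inside a protein-coding gene on chromosome II, III, IV or V but in no annotated exon of a protein-coding transcript. There were 1141 such peaks among 4635 peaks on these 4 chromosomes and 7262 in the whole list. The list came from chromatin immunoprecipitation and sequencing (ChIP-seq) with an anti-GFP antibody in whole Caenorhabditis elegans hermaphrodites at the L4 larval stage. The worms were strain OP398 (unc-119(tm4063) III; wgIs398), a line stably carrying DVE-1 with GFP and FLAG at its C-terminus, so the measured protein is the tagged transgene product and tissues are mixed. There was 1 group with 2 biological replicates. No untreated, stressed or mutant group was analysed here, so no test between conditions was possible. Shares are descriptions, and their intervals (exact Clopper-Pearson, 95%) cover counting error only.

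DVE-1 is a homeodomain protein related to the mammalian SATB proteins and is best known as a regulator of genes that answer mitochondrial stress, the programme called the mitochondrial unfolded protein response. Introns of C. elegans are mostly short, but long ones can hold enhancers, promoters of shorter isoforms and whole nested genes. They also hold small RNA genes: tRNA genes are transcribed by RNA polymerase III from promoter elements inside the gene, and many snoRNAs, which guide modification of other RNAs, lie in introns of host genes.

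The sequences under 6 intronic summits are shown first. They were picked for the letters counted further on and are not the 6 strongest: hlh-30 and inft-2 rank 128 and 202 among intronic peaks, and the windows at cox-6B, pqn-41 and hsp-90, which rank 3, 7 and 8, held none of the motifs counted. Each runs from 50 bases before to 50 after the summit on the plus strand, on the ce11 build (WBcel235, RefSeq assembly). Capitals mark, on either strand, GAGACG and GAGACGCAG in the first 3, TGATAA in pkg-2, CACGTG in hlh-30 and, in inft-2, GTTCNANNC, letters of the internal promoter box of tRNA genes. In Y43F8B.2 CACGTG and in epg-9 GAGAGA are also in capitals. GAGACG is contained in GAGACGCAG, so the counts of this pair overlap.
Y111B2A.12, chrIII:12612614-12612714: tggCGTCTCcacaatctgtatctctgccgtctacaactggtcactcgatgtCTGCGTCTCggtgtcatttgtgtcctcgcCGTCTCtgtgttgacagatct
epg-9, chrIV:2602147-2602247: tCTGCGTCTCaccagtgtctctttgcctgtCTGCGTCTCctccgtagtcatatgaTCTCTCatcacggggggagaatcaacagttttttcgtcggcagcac
Y43F8B.2, chrV:19529347-19529447: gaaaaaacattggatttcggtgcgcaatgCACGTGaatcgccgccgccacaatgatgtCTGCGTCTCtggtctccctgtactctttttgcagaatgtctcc
pkg-2, chrIV:8530765-8530865: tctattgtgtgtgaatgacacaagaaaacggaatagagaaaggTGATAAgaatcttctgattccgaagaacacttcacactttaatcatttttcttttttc
hlh-30, chrIV:4026076-4026176: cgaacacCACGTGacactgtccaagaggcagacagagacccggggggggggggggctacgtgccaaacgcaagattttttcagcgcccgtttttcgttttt
inft-2, chrV:13003480-13003580: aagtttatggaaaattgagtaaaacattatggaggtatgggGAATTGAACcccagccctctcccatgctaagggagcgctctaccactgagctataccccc

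Intronic peaks were 24.6% of the autosomal peaks analysed (interval 23.4 to 25.9%), while introns made up 32.4% of the bases of chromosomes II to V. Another 2970 peaks lay outside protein-coding genes and 524 in exons. The intronic share was 26.8% on chromosome II, 25.7% on III, 25.8% on IV and 20.8% on V, and the density on these chromosomes was 62.6, 54.7, 49.7 and 44.1 peaks per Mb of intron. The median peak region was 364 bp wide, and 728 of the 1141 regions (63.8%) lay wholly in intronic bases. The summit of 118 peaks was within 50 bp of an exon.

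The signal, the strength the deposited lists give each region, had a median of 62.2 over intronic peaks, with quartiles at 45.7 and 91.2 and a range of 34.7 to 515. Peaks outside genes had a median of 67.3 and exonic peaks one of 51.7. Relative to the median autosomal peak, the median intronic peak stood at 0.964. At the edge of the reproducible list the last intronic peak inside had a signal of 34.74 and the first one outside 34.67. The reproducible list was exactly the 7262 strongest regions of the pooled list, so weaker regions could be followed past that edge.

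**Figure D1:**
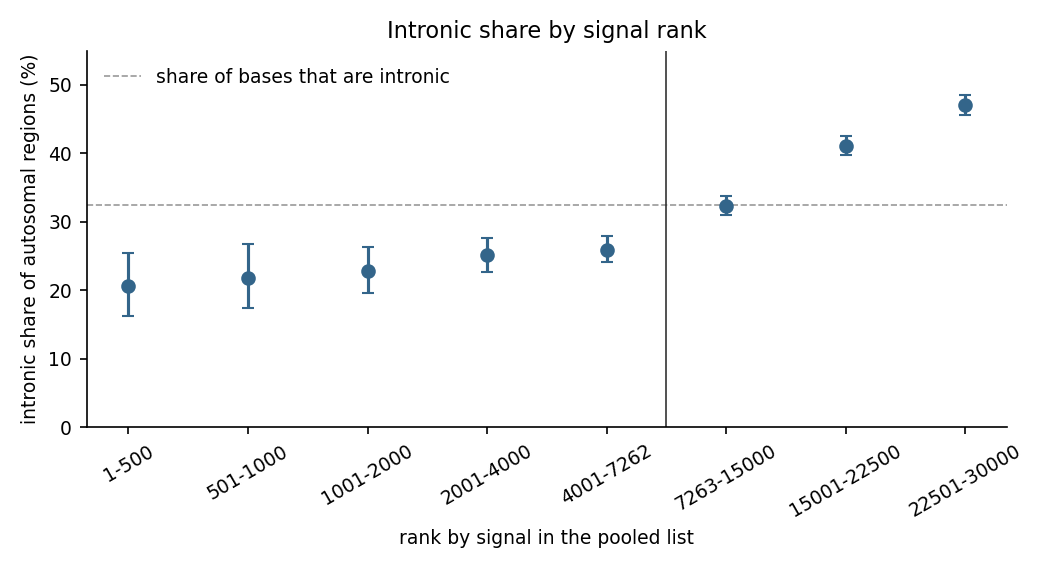
Share of autosomal regions with an intronic summit (y axis, percent) by rank of signal in the pooled list of 30000 regions (x axis, strongest on the left). Points are shares, bars are exact 95% binomial intervals, the dashed line is the intronic share of bases and the vertical line is the edge of the reproducible list; the share was 20.6% in ranks 1 to 500 and 47.1% in ranks 22501 to 30000.

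The weaker the region, the more often it lay in an intron. Among the 500 strongest pooled regions 20.6% of those on chromosomes II to V had an intronic summit (67 of 326), and in ranks 4001 to 7262 the share was 25.9% (542 of 2089). Past the edge it was 32.3% in ranks 7263 to 15000, close to the 32.4% of bases that are intronic, then 41.1% and 47.1% in the next bins. Of the 100 strongest autosomal peaks, 15 were intronic.

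Both replicates held most intronic peaks. The reproducible list was itself thresholded for reproducibility, so a high share is in part set by that selection. A summit within 100 bp was found in the list of each replicate for 1069 of 1141 (93.7%), against 93.9% of all autosomal peaks. Among the 7262 strongest regions of both replicates were 805 (70.6%), against 71.3% of all autosomal peaks. Signals were compared after division by the median of each replicate over all peaks of the reproducible list matched in it, since each list has a scale of its own. The log2 ratio of the replicates had an SD of 0.643 over the 1069 peaks, and 746 of them (69.8%) were within 1.5-fold. The rank correlation of the replicates (Spearman) was 0.69, and that of the log2 signals (Pearson) was 0.69, as a description of points that come from the same 2 libraries and a shared control. The 72 peaks without a match in 1 or both lists had a median signal of 44.9, and the strongest of them, in R02F2.1, had 157.3.

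**Figure D2:**
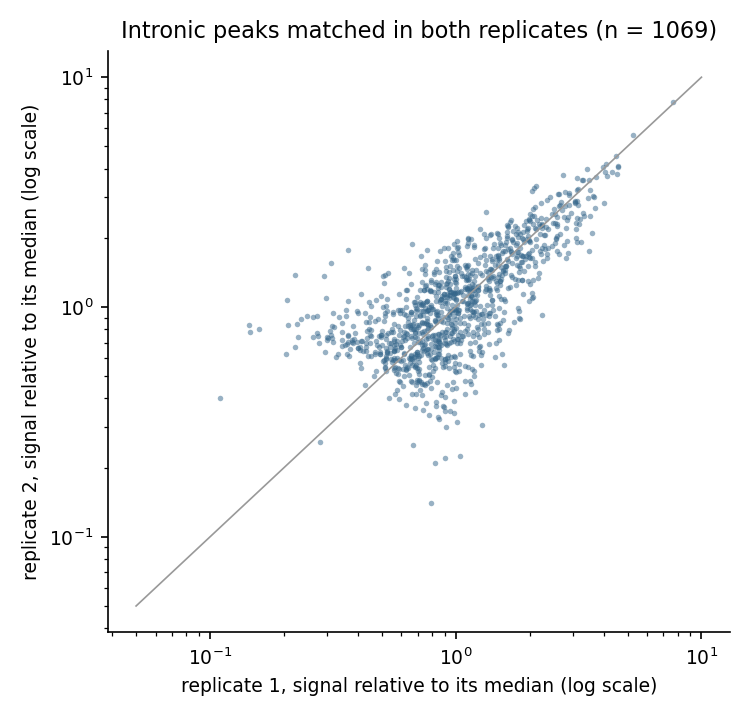
Signal of each intronic peak in replicate 1 (x axis) and replicate 2 (y axis), each relative to the median of its replicate, on log scales; each point is 1 of the 1069 peaks matched in both and the line marks equal values. The strongest peaks lie near the line and the spread is wider among weak ones.

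The strongest intronic peak lay in the fourth of 7 introns of Y111B2A.12, with a pooled signal of 515.5. Its signal was 224.9 in replicate 1 and 293.8 in replicate 2, which is 7.71 ± 0.09 times the median (SD, n = 2). No annotated coding 5′ end had this summit in its window, and the next one downstream in the gene was 5200 bp away. The second was in intron 2 of epg-9, which encodes an autophagy protein, at 368.3, with 155.5 and 211.3 in the replicates (5.44 ± 0.22 times the median, SD, n = 2). Its window is the one shown above with 2 copies of GAGACGCAG.

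The third was in cox-6B, a cytochrome c oxidase subunit gene of the respiratory chain, at 304.4, with 132.3 and 171.0 in the replicates (4.51 ± 0.02, SD, n = 2). It lay in an annotated intron of 86515 bp that follows a first exon of 22 bp and spans 13 other protein-coding genes. This summit was 154 bp upstream of the 5′ end of a shorter cox-6B transcript and 100 bp upstream of that of another gene, Y71H2AM.20. The other 4 peaks in that intron lay only in windows of other genes, pho-9, swsn-3, cest-25 and Y71H2AM.11, with signals of 161.6, 126.8, 111.2 and 42.11. The 5 intronic peaks in the longest introns were thus all in cox-6B.

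Next in rank came a pair of summits in intron 4 of pkg-2, a cGMP-dependent protein kinase gene, at 287.6 and 284.5. The first had 134.2 and 153.4 in the replicates and the second 135.1 and 155.8, relative values of 4.31 ± 0.35 and 4.36 ± 0.33 (SD, n = 2), so the pair did not differ beyond the replicate spread. Y43F8B.2 followed at 278.3 (4.17 ± 0.53), pqn-41, which encodes a glutamine-rich protein, at 274.0 (4.15 ± 0.07), and hsp-90, the cytosolic chaperone gene, at 272.5 (4.11 ± 0.33). The nuclear hormone receptor gene nhr-19 stood at 270.9 (4.01 ± 0.06) and the forkhead factor gene fkh-7 at 265.4 (3.97 ± 0.13). From the fourth to the tenth place the neighbours in this order did not differ beyond their SDs.

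First introns held more peaks than their share of intronic bases. Of the 1134 peaks that lay in an intron of the transcript with the longest coding sequence covering the summit, 452 (39.9%) were in a first intron, which made up 25.7% of intronic bases. The density was 80.5 peaks per Mb in first introns, 60.2 in the second, 38.6 in the third and 36.9 in later ones. The difference between first and later introns was also seen within long and within short introns. In introns of 1000 bp or more the density was 102 per Mb in first introns and 56.5 in later ones, and in shorter introns it was 52.6 and 31.2. The median signal was 66.3 in first introns, 57 in the second, 57.6 in the third and 63.5 in later ones. Counting the first intron of any transcript of the gene raised the share to 54.3% of all 1141. The remaining 7 peaks lay between transcripts of their gene, in no intron.

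**Figure D3:**
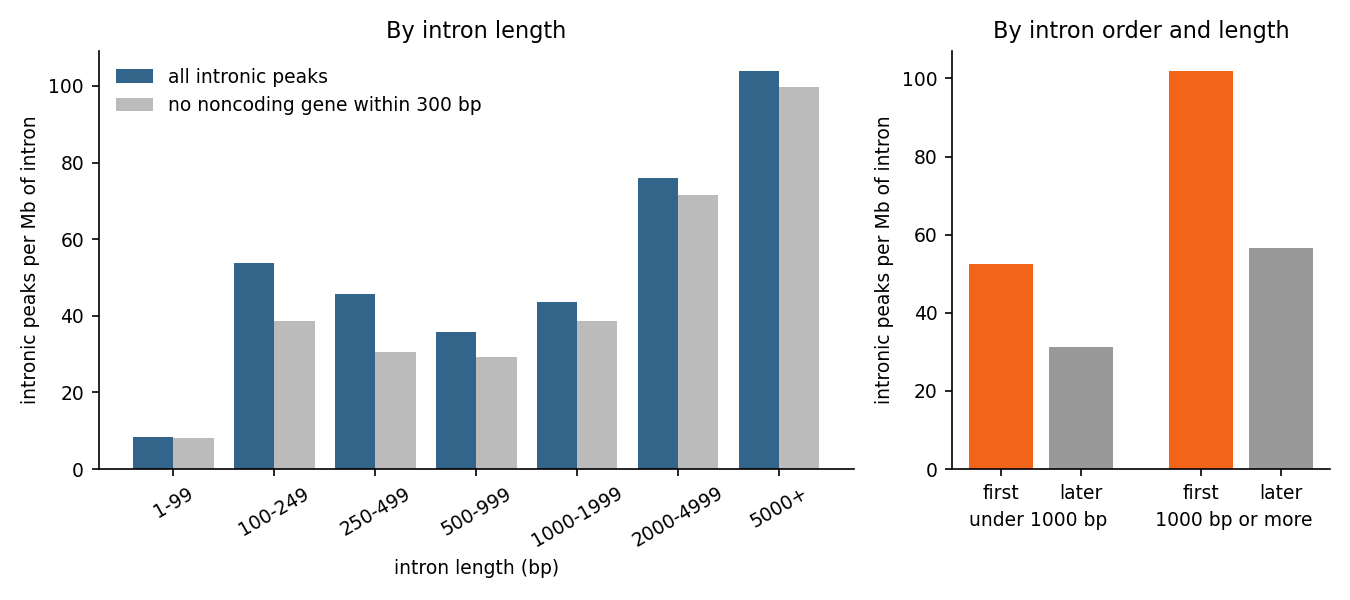
Intronic peaks per Mb of intron (y axes) by length of the intron in bp (left; blue, all peaks; grey, peaks and bases with no noncoding gene within 300 bp) and by order and length (right; orange, first introns; grey, later introns). Density was 103.9 per Mb in introns of 5000 bp or more and 8.33 in those under 100 bp, and first introns were above later ones in both length classes.

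Peaks were densest in introns of 2000 bp or more, although shorter introns held many as well. The median length of the intron at the summit was 1900 bp, against a median of 67 bp over the 73296 distinct introns and 921 bp when each intronic base counts once. Only 863 distinct introns (1.18%) held a peak. The share was 0.0414% of introns under 100 bp, 2.22% of those of 500 to 999 bp, 11.6% of those of 2000 to 4999 bp and 26.6% of those of 5000 bp or more. Density did not rise evenly with length. It was 8.33 peaks per Mb in introns under 100 bp, 53.8 at 100 to 249 bp, 45.6 at 250 to 499 bp, 35.7 at 500 to 999 bp, 43.5 at 1000 to 1999 bp, 75.9 at 2000 to 4999 bp and 103.9 above. Genes of tRNAs, snoRNAs or snRNAs lay within 300 bp of 28.2% of the peaks at 100 to 249 bp and 28.6% of those at 250 to 499 bp. Without peaks and bases near a noncoding gene the density was 38.7 per Mb at 100 to 249 bp, 30.6 at 250 to 499 bp and 29.3 at 500 to 999 bp, so the first of these bins was still above the next ones. Of all peaks, 143 (12.5%) lay in an intron shorter than their own peak region, so that region also covered exonic bases.

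Within the intron the summits showed no strong lean to either splice site. In introns of 1000 bp or more, 28.4% of the 723 summits were in the part nearest the 5′ splice site when the intron is cut in 3 equal parts, 35.1% in the middle and 36.5% in the last. The same parts held 27.2%, 35.0% and 37.8% of the 323 summits in long first introns.

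Internal 5′ ends, where a shorter transcript of the same gene begins, were the coding 5′ ends most often near a summit. A summit 1000 bp upstream to 200 bp downstream of such an end was counted as before it. This held for 370 of 1141 peaks (32.4%, interval 29.7 to 35.2%), while such windows covered 11.7% of intronic bases, which gives 145 peaks per Mb. The summit was upstream of the end in 351 of the 370, at a median of 288 bp, and 152 were within 250 bp of it. These peaks had a median signal of 65.7. In all, 116 peaks (10.2%) lay in the window of a different gene. Of these, 63 were in no window of the host, 38 of them of a gene nested in the host and 45 of a gene on the opposite strand. The 63 were 5.52% of all intronic peaks, near the 5.32% of intronic bases in this class. Their density was 54.2 per Mb, against 52.2 over all introns. A further 13 peaks lay in the window of the host's own outermost start and of no internal one. That window lies inside the gene only by its 200 bp downstream part. It covered 2.24% of intronic bases and held 1.14% of the peaks (interval 0.608 to 1.94%), a density of 26.5 per Mb.

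The other 695 peaks (60.9%) had no coding 5′ end in reach, and these windowless bases made up 80.8% of all intronic bases, a density of 39.3 per Mb. Their median signal was 59.9, and 8 of the 10 strongest intronic peaks, those in cox-6B and hsp-90 left out, were among them. In 344 of the 695 (49.5%) a further internal 5′ end did lie downstream, at a median of 2584 bp. The host had a single annotated 5′ end in 229 (32.9%). In all, 735 peaks (64.4%) had a transcript of the host starting downstream, 81.2% of those in first introns and 53.1% of those in later introns. Relative to those transcripts the summits were upstream of the gene body. The matching shares of intronic bases were not computed for downstream 5′ ends or for hosts with a single 5′ end. These counts therefore have no background and are not read as a trait of the peaks.

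Examples before an internal 5′ end were led by cox-6B and hsp-90. Both summits were nearer to the 5′ end of another gene. The hsp-90 summit was 383 bp upstream of a shorter hsp-90 transcript and 292 bp upstream of C47E8.4, with 127.7 and 146.4 in the replicates. In T24B8.3 the distance was 417 bp (pooled signal 230.7), in zfp-1, which encodes a zinc finger protein of chromatin, 692 bp (226.4), and in scc-2, the cohesin loader gene, 162 bp (223.5). In nurf-1, a nucleosome remodelling factor gene, a summit with a signal of 182.0 lay 121 bp upstream.

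**Figure D4:**
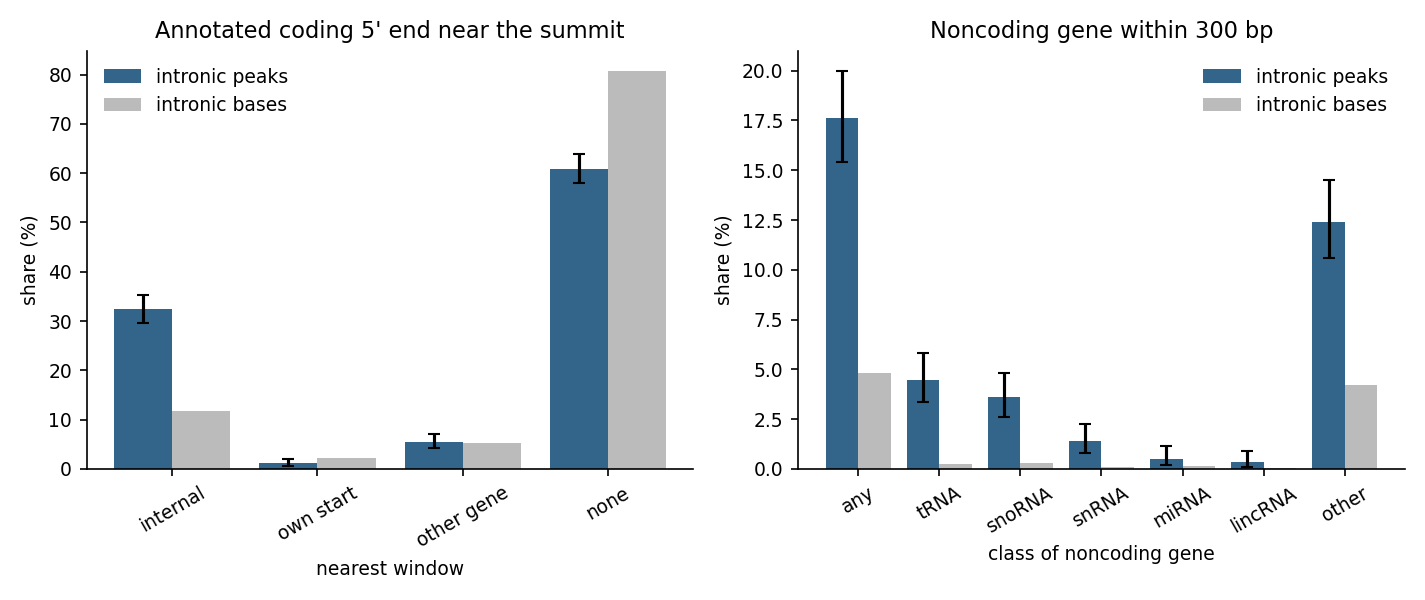
Share (y axes, percent) of the 1141 intronic peaks (blue, bars are exact 95% binomial intervals) and of intronic bases (grey) by the coding 5′ end whose window holds the summit (left) and by class of noncoding gene within 300 bp (right; a peak can count in several classes). Windows of internal 5′ ends held 32.4% of peaks and 11.7% of bases, and tRNA genes were near 4.47% of peaks and 0.27% of bases.

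Noncoding RNA genes lay within 300 bp of 201 intronic peaks (17.6%, interval 15.4 to 20.0%), against 13.9% of the other autosomal peaks and 4.82% of intronic bases. This leaves out piRNA genes and pseudogenes; piRNA genes were near 3.16% of peaks and 5.17% of bases. The highest densities were those of small structured RNAs: tRNA genes were near 51 peaks (862 per Mb of intron in reach), snoRNA genes near 41 (634 per Mb) and snRNA genes near 16 (610 per Mb). The corresponding shares of the other autosomal peaks were 1.66%, 0.916% and 0.658%. miRNA genes were near 6 peaks (0.526%, against 0.458% of the other autosomal peaks and 0.141% of intronic bases). lincRNA genes were near 4 (0.351%, against 1.03% and 0.0604%) and other noncoding genes near 142 (12.4%, against 11.4% and 4.24%).

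Peaks at tRNA genes were weak and centred on the gene. The summit lay inside the gene in 30 of 51, and the signal ran from 36.09 to 109.3 with a median of 53.7. Both replicates held 46 of them (90.2%), and 6 were in a first intron. The median intron there was 375 bp long, and 29 of the tRNA genes were on the strand of the host. The strongest was in intron 5 of inft-2, with 49.65 and 58.67 in the replicates (1.62 ± 0.09 times the median, SD, n = 2), followed by rsa-2 (105.8) and nimk-1 (95.43). The letters GTTCNANNC were in 24 of the 51 windows (47.1%), as in the inft-2 window above, against 2.83% of all intronic windows outside peaks. These windows were picked for a tRNA gene in reach, and tRNA genes carry such letters themselves, so this difference follows from the choice of windows. Genes of tRNAs without a peak were not compared.

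Peaks at snoRNA genes were stronger, with a median of 104.1 and a range of 36.69 to 220.6, the highest being a zip-2 summit 253 bp from K02F3.15, and 39 of 41 were found in both replicates. The summit was inside the gene in 7 and lay a median of 30 bp from it. The host shared the strand in 29 of the 41. Those in F01D5.10 and C08D8.1 had signals of 190.5 and 187.9, at 14 and 5 bp from the snoRNA gene. Near snRNA genes the strongest summit was in intron 31 of dhc-4, a dynein heavy chain gene, 36 bp from R07E5.16, at 261.7 (3.91 ± 0.30, SD, n = 2). In glr-2, a glutamate receptor subunit gene, 3 summits with signals of 200.7, 65.46 and 48.12 lay at sls-2.16, sls-2.18 and sls-2.5, members of the family of SL2 spliced leader RNA genes.

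The miRNA gene nearest to a strong summit was mir-2214, 42 bp from a summit in B0361.11 (195.6). The lincRNA linc-37 contained a summit in zip-2 (179.3), and linc-143 lay at summits of 77.64 and 59.89 in daf-2, the insulin receptor gene.

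The 1141 peaks fell in 740 host genes, 5.34% of the 13858 protein-coding genes with an intron on these chromosomes. One peak was found in 549 hosts, 2 in 98, 3 in 45 and 4 or more in 48. Hosts had more intron than other genes, a median of 2855 bp against 678 bp over all genes with an intron. The share of genes that hosted a peak was 1.62% with under 1000 bp of intron, 8.22% with 1000 to 4999 bp, 19.5% with 5000 to 9999 bp and 38.4% with 10000 bp or more. An autosomal peak in the 1000 bp before the gene's own 5′ end was present at 36.6% of hosts and 16.9% of other genes. This difference was seen in each length class, from 48.2% against 16.8% in the shortest to 21.8% against 13.6% in the longest.

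**Figure D5:**
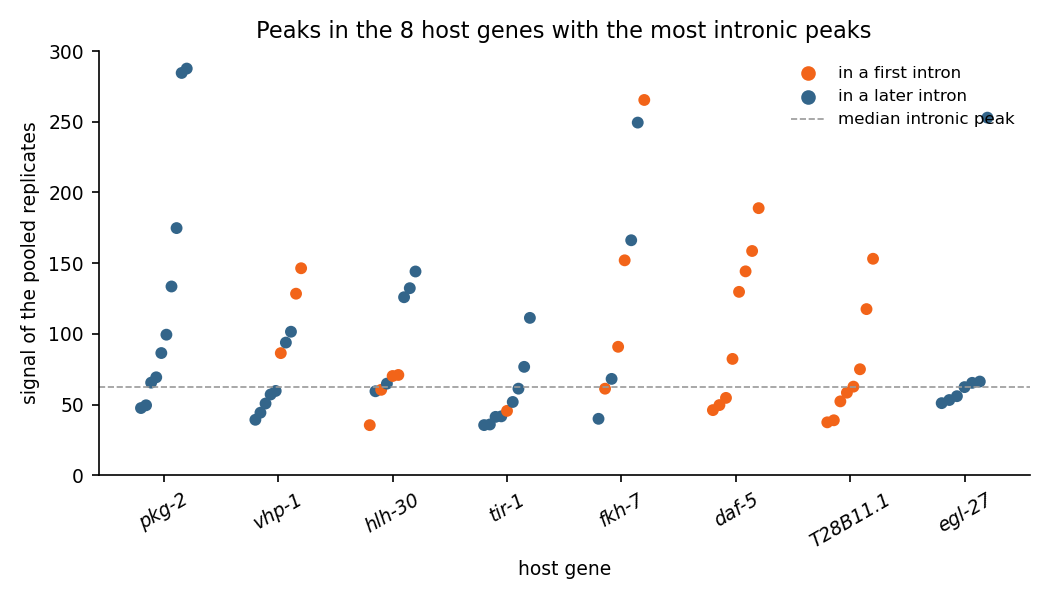
Pooled signal (y axis) of every intronic peak in the 8 host genes with the most of them (x axis); each point is 1 peak, orange in a first intron and blue in a later one, and the dashed line is the median intronic peak at 62.2. In pkg-2 2 peaks stand near 285 while the other 8 are at or under 174.8.

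Most host genes held a single peak, while a few held many. pkg-2 and vhp-1, which encodes a MAP kinase phosphatase, held 10 each. hlh-30, the gene of a TFEB-like factor of autophagy and lysosome genes, and tir-1, a TIR-domain adaptor gene of the innate immune p38 pathway, held 9 each. fkh-7, daf-5 and T28B11.1 had 8 each and egl-27, an MTA-like chromatin gene, had 7. The signal ranged from 47.53 to 287.6 in pkg-2, from 39.23 to 146.4 in vhp-1 and from 35.48 to 111.3 in tir-1, where the median of 45.54 was below that of all intronic peaks.

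All 8 peaks of daf-5, a Sno/Ski family gene of the TGF-β dauer pathway, lay in 1 intron of 14446 bp, the first. Their signals were 188.9, 158.6, 144.2, 129.7, 82.28, 54.71, 49.64 and 46.07. The peaks at 158.6 and 46.07 had overlapping regions with the same start, since each summit in the list was counted as a peak of its own. Of the 8 peaks, the 7 stronger ones were found in both replicates. All 8 stood 2733 to 13885 bp upstream of the 5′ end of the shorter daf-5 transcript, so none fell in its window. No intron held more than 8 peaks, a number also reached by intron 1 of T28B11.1, and 156 introns held 2 or more. Of all intronic peaks, 29.7% had another summit of the list within 1000 bp, against 24.3% of the other autosomal peaks. Summits of overlapping regions count separately in these numbers and in the peak counts of all hosts.

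In hlh-30 the 9 peaks were spread over the first and second introns. The 3 strongest, at 144.1, 132.3 and 125.9, were all in intron 2, which is 8295 bp long, and had relative values of 2.22 ± 0.03, 2.02 ± 0.45 and 1.83 ± 0.08 (SD, n = 2). The weakest, at 35.44, was found in replicate 1 and had no match in replicate 2. The second of the 3 held CACGTG in its window, shown above.

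In pkg-2 the 10 peaks were shared between intron 4, of 6824 bp, with 6, and intron 5, of 3697 bp, with 4. Beside the strong pair, intron 4 held peaks of 174.8, 69.27, 49.49 and 47.53, and intron 5 held peaks of 133.5, 99.41, 86.43 and 65.49. All 10 were found in both replicates and were among the strongest regions of each. Only the summit at 133.5 was in the window of an internal 5′ end, 746 bp upstream of it.

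The fkh-7 peaks were spread over introns 1, 4 and 6. Intron 1, of 16465 bp, held 265.4, 152.0, 90.85 and 61.22, intron 4 held 249.4, 68.15 and 39.92, and intron 6 held 166.2. The peak at 249.4 had 109.5 and 138.8 in the replicates (3.70 ± 0.03 times the median, SD, n = 2), against 3.97 ± 0.13 at the strongest. The weakest differed more between replicates, at 28.99 and 13.11.

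Replicates were less alike in vhp-1 and tir-1. The vhp-1 peak at 101.5 had 49.7 in replicate 1 and no summit within 100 bp in replicate 2, and its neighbour at 59.63 had 10.72 and 66.78. These summits lay in the same intron 4, at 2200 and 2405 bp from its 5′ splice site, in regions next to each other. Matching within 100 bp treated them as separate peaks. In tir-1 the peak at 35.48 had 4.226 and 31.52, and both replicates ranked only 4 of the 9 tir-1 peaks among their 7262 strongest regions.

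The nhr-19 peaks lay mostly in intron 2, of 4213 bp, which held 5 of the 6. Their signals were 270.9, 107.5, 94.6, 93.41 and 60.72, so the strongest stood apart from the others in that intron. In egl-27 the peak in intron 10 at 252.9 (3.71 ± 0.39, SD, n = 2) likewise stood apart from the other 6, which ran from 51 to 66.27. In T28B11.1 all 8 peaks lay in an intron of 17091 bp, and 5 of them had a noncoding gene within 300 bp.

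In skn-1, 4 of the 6 peaks were in intron 1, of 4347 bp. The 3 strongest, at 118.8, 114.4 and 113.6, had relative values of 1.78 ± 0.42, 1.72 ± 0.07 and 1.71 ± 0.27 (SD, n = 2) and did not differ beyond the replicate spread. The peak at 113.6 lay 570 bp upstream of an internal 5′ end. In atf-7 the summits of 160.5 and 136.0 were both in intron 2, the second of them 334 bp upstream of an internal 5′ end. unc-43, the calcium and calmodulin dependent kinase gene, held 4 peaks at 136.0, 124.5, 88.85 and 68.1.

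Host genes were also read against 14 lists of genes, which were chosen with earlier results of these data known and are given as counts. Of 12 stress and longevity transcription factors with an intron on these chromosomes, 6 were hosts (300 peaks per Mb of their introns, against 52.2 over all introns). They were hlh-30 (9 peaks), skn-1, the Nrf-like factor of oxidative stress (6), atf-7, a bZIP factor of innate immunity (3), zip-2, a bZIP factor of pathogen and translation surveillance (2), and crh-1 and pha-4 with 1 each. In zip-2 both summits were in intron 1, at 220.6 and 179.3, with 107.1 and 113.7 in the replicates for the first (3.33 ± 0.44, SD, n = 2). Among 7 mitochondrial stress regulators, zip-3, whose product opposes the stress factor ATFS-1, held 3 peaks at 150.1, 100.9 and 36.58, and ulp-4, a SUMO protease gene, held 1 at 45.78. These 2 hosts were 28.6% of the 7 genes, which had a median intron total of 1418 bp and 325 peaks per Mb.

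Nuclear hormone receptor genes numbered 223 on the list, and 18 (8.07%) were hosts, near the 5.34% of all genes. nhr-19 led with 6 peaks, followed by nhr-34 with 4 and nhr-46 with 3. Of 13 genes of the intestinal lumen and junctions, 4 (30.8%) were hosts: eps-8, ifb-2, pgp-1 and ifo-1. The 13 had a median intron total of 1180 bp, against 678 bp over all genes, and 226 peaks per Mb, against 52.2. Of 19 lipid metabolism genes, with a median intron total of 916 bp and 204 peaks per Mb, 5 (26.3%) were hosts. Among these were the desaturase genes fat-3, fat-4 and fat-6. The strongest fat-4 summit, at 166.4, lay in its last intron, 271 bp upstream of another 5′ end within the gene.

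The remaining lists are read beside the 5.34% of all genes that were hosts. None of 13 genes of muscle sarcomere and attachment, 14 of basement membrane and adhesion, 6 GATA factor genes or 50 cytosolic ribosomal protein genes held an intronic peak. The muscle and adhesion genes had median intron totals of 2786 and 3092 bp, above the 678 bp of all genes, while the ribosomal protein genes had only 165 bp. Of the 51 chromatin regulators on the list 1 (1.96%) was a host, cbp-3, whose summit also lay 620 bp upstream of cbp-2. That list leaves out zfp-1, nurf-1 and egl-27, which were hosts. Of 37 ceh homeobox genes 2 (5.41%) were hosts, ceh-43 and ceh-79. Of the 14 listed insulin, TOR and AMPK genes 1 (7.14%) was a host, daf-2. The AMPK gamma subunit genes aakg-1, with 6 intronic peaks up to 196.3, and aakg-5, with 1 at 80.29, are not on that list. Synapse genes had 3 hosts of 17 (17.6%; unc-43, egl-8 and unc-5) and ion channel genes 3 of 18 (16.7%; itr-1, kqt-3 and gtl-1), with median intron totals of 7176 and 6663 bp. Per Mb of intron these 2 lists held 38.2 and 18.3 peaks, below the 52.2 over all introns, so their higher host shares go with longer introns.

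Short sequence motifs were counted from 50 bases before to 50 after each summit, on both strands. TGATAA, the letters bound by GATA factors, was in 31.5% of intronic windows, 29.1% of windows at the other autosomal peaks and 8.21% of all intronic windows outside peaks. GAGACG was in 13.1%, 14.8% and 1.95%, GAGACGCAG in 6.84%, 7.27% and 0.508%, GAGAGA in 23.5%, 21.0% and 4.07%, and CACGTG, the E-box, in 7.01%, 5.15% and 1.25%. Intronic windows 1000 bp from the same summits held TGATAA in 10.2% and GAGACGCAG in 0.289%. The G and C content was 40.6% at the median intronic summit, 40.6% at other peaks and 31.7% in intronic windows outside peaks, and motif counts were not adjusted for it.

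The other letters counted were rarer. TGACTCA was in 2.45% of intronic peak windows, 2.29% of windows at the other autosomal peaks and 0.758% of intronic windows outside peaks. In the same order GCGCGC was in 3.51%, 4.04% and 0.919%, TGACGTCA in 0.876%, 0.859% and 0.661%, and ATTGCAT in 1.31%, 1.72% and 1.48%. TTAATTA, a homeodomain core, was in 0.789%, 1.26% and 3.16%. A match is a description of letters and not a site. Intronic peaks with GAGACGCAG had a median signal of 81.7 against 60.9 without, and those with CACGTG 83.6 against 61.0, while those with TGATAA had 62.3 against 61.3. Of the 100 strongest intronic peaks 26 held GAGACG and of the 100 weakest 9, whereas TGATAA was in 27 of each.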

How the data were processed

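Peak lists on the ce11 build were used as deposited: 1 reproducible list thresholded by irreproducible discovery rate, 1 relaxed list of the pooled replicates and 1 of each replicate, with 30000 regions in each relaxed list. Column 7 holds the signal the authors' peak caller gave each region against a control alignment shared by both replicates, per the deposited text. Which caller, aligner and threshold were used is not stated in the labels or that text. The control itself was not analysed here, and the lists hold no read counts, so depth is unknown. Summits were placed on the Ensembl release 115 annotation of WBcel235, and the intron was taken from the transcript with the longest coding sequence that covers the summit. A 5′ end window covered the 1000 bp upstream and the first 200 bp downstream, a noncoding gene counted within 300 bp, and summits matched within 100 bp. Gene lists and motifs, and the peaks described, were chosen with earlier results of these data known; GTTCNANNC and GAGACGCAG were added after the data were seen. Genes to name were set by rule, but not all of them are described, W06H8.6 (239.7) and F58G1.7 (201.8) being among those left out. The rules took hosts of the 15 strongest peaks, the 8 hosts with the most peaks, and the strongest peaks without and with a 5′ end in reach. They also took the 3 strongest per noncoding class, the longest introns, the 5 strongest in first introns and up to 4 hosts per list. Python 3.11.15, pandas 2.3.3 and SciPy 1.17.1 were used, and the placement was tested on simulated positions.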

Additional observations from a re-analysis of the deposited data

How the results depend on the processing

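Across 43 alternatives to 8 results, 25 left the value within its counting interval, replicate spread or 1.5 times its count, and 18 moved it. Taking the 7262 strongest regions of a single replicate gave 1141 to 1168 intronic peaks (24.6 to 25.2%) and a first-intron share of 39.6 to 40.9%. It gave 31.9 to 32.5% before an internal 5′ end, 18.1 to 18.2% near a noncoding gene and a median intron of 1732 to 1867 bp. Replicate 1 alone gave the same counts as the reproducible list, 1141 of 4635, although its peaks number 298, 291, 285 and 267 on chromosomes II to V, against 297, 291, 286 and 267. The relative median signal was instead taken in each replicate at the matched peaks of the reproducible list, and was 0.963 to 0.967. In the list cut to its stronger 3631 regions there were 542 intronic peaks, 42.8% in first introns, 35.6% before an internal 5′ end, a median intron of 2146 bp and a relative median signal of 0.957. Leaving out summits in exons of any annotated gene gave 22.6%. A first intron of any transcript raised that share to 54.3%, 5′ end windows from 500 bp upstream to 100 bp downstream and from 2000 bp upstream to 200 bp downstream gave 21.1% and 43.8%, and noncoding distances of 100 and 1000 bp gave 14.9% and 26.9%. The shortest intron at each summit had a median of 1730 bp. Summits matched within 50 or 200 bp were found in both replicates for 74.8% or 98.2%, and among the strongest regions of each for 70.6%. Alternatives added after the data were seen gave a median intron of 2176 bp without peaks near noncoding genes and 1692 bp without introns that hold a protein-coding gene. No paired analysis was possible because there is 1 group. With 2 replicates, SDs are themselves imprecise.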
